A study of Mus musculus with 16 samples.

Results

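Housekeeping genes carry out the work every cell needs, and their start sites lie in short stretches of open chromatin. The regions described here were the ATAC peaks at the start sites of the genes of cytosolic and mitochondrial ribosomal proteins, of the respiratory complexes I, III and IV and the ATP synthase, and of the proteasome, in granule cells (GCs) of the mouse dentate gyrus (DG). Peaks were merged over the 8 libraries into 150252 regions, of which 25604 had a peak in every library. Of these shared regions, 303 lay within 1 kb of the annotated transcription start site (TSS) of a gene whose symbol matched these families. The match by symbol also took in other genes, among them Rps6k kinases (10 regions) and complex I assembly factors (8 regions). The 303 regions belonged to 297 of the 318 genes that matched. They were compared with the 12183 other promoter regions (within 1 kb of the TSS of any other gene) and with the 13118 shared regions farther than 1 kb from a TSS.

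The nuclei came from fresh frozen, microdissected DGs of 4 wild-type mice (WT, labelled VV) and 4 mice with the V321L mutation in the gene *Nrg1* (V321L, labelled LL), with 2 females (F1, F2) and 2 males (M1, M2) per genotype, no treatment beyond the genotype and no age stated for a sample. V321L replaces a valine by a leucine in the transmembrane part of neuregulin 1, and the study asked how the mutation, which impairs signalling by the released intracellular part of the protein to the nucleus, affects GC types. The 10x Multiome kit reads out RNA and open chromatin together in single nuclei, with 1 library per mouse. Whether the 4 mice of a genotype shared a litter or a preparation day is not stated.

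Ribosomes, respiratory complexes and proteasomes are built from many subunits in fixed ratios, so their genes are active in nearly all cells. Their promoters are typically rich in GC and CpG and keep an open, nucleosome-poor stretch at the start site, bound by factors such as those of the ETS, NRF1, YY1 and Sp families. An ATAC count marks an insertion of the transposase into open DNA, so the share of a nucleus's counts that falls on a promoter measures how accessible it is, and nuclear RNA of the same gene measures transcripts still in, or attached to, the nucleus.

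Of the 297 genes, 245 had a promoter sequence in RefSeq (GRCm38.p6, 250 bases before to 50 after the start), matched by symbol, and for 241 of them the RefSeq start lay inside one of the gene's own regions. Some of these stretches are printed 5′ to 3′ as examples from genes named in the results. They cover 3 of the 4 genes whose RNA rose most, 2 of the 4 whose RNA fell most and the most accessible promoter of the cytosolic ribosome. Also printed are 2 of the 4 promoters that differed most between GCs and other nuclei (*Psma6* and, also among the rises, *Mrpl34*). Capitals mark letters that match one of 6 short motifs on either strand, namely CCGGAAG (ETS), AAGATGG (YY1), GCATGCG (NRF1), GGGCGG (Sp), CCAAT and TATAAA, and matches may overlap or touch.
Uqcr11, chr10:80406772-80407071, minus strand: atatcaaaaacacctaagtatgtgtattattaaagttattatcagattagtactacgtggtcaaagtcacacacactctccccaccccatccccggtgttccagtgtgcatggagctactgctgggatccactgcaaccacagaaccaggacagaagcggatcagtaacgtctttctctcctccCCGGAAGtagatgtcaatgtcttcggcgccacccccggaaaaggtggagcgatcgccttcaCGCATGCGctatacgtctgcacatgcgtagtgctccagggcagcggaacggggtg
Mrpl34, chr8:71464676-71464975, plus strand: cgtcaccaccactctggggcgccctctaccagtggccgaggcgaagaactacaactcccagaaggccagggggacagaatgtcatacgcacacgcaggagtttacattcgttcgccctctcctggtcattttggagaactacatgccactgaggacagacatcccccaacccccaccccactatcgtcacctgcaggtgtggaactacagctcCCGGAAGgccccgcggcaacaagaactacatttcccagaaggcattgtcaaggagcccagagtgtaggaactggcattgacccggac
Ndufa13, chr8:69901971-69902270, minus strand: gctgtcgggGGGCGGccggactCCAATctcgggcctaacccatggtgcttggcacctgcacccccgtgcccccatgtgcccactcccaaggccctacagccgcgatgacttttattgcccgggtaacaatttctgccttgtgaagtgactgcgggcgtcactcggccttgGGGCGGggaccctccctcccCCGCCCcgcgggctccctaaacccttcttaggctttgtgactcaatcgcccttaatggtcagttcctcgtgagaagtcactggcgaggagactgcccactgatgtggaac
Mrpl1, chr5:96209865-96210164, plus strand: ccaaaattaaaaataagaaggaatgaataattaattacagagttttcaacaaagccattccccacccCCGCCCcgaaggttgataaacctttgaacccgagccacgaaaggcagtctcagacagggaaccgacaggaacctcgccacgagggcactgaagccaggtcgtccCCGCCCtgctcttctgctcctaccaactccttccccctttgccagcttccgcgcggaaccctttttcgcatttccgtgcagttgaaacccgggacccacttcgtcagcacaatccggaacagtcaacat
Rps6ka5, chr12:100725071-100725370, minus strand: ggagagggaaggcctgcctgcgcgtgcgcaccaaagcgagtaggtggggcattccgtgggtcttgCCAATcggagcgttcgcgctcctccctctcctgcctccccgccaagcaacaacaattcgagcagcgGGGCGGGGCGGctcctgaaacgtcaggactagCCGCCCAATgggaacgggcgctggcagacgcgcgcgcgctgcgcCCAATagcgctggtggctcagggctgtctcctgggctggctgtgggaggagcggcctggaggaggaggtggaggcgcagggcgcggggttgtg
Rps19, chr7:24884342-24884641, plus strand: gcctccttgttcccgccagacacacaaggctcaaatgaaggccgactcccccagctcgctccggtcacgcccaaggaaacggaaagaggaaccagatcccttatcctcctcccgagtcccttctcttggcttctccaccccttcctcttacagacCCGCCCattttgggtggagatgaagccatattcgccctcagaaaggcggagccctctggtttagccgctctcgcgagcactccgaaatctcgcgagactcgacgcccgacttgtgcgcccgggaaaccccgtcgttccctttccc
Psma6, chr12:55398575-55398874, plus strand: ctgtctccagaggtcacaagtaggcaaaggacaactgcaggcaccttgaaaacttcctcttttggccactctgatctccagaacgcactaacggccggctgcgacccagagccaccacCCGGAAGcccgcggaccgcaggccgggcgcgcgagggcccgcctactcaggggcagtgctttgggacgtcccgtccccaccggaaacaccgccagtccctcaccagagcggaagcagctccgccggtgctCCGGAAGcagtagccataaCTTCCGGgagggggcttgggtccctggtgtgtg

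*Uqcr11*, a small subunit of complex III, held an ETS match 66 bases before the start and overlapping NRF1 matches on both strands at 4 and 5 bases before it. *Mrpl34* held 1 ETS match and *Psma6*, a subunit of the proteasome core, held 3. Of 12 proteasome core promoters only 1, that of *Psma6*, held the ETS letters (8.33%), the lowest share of the 11 families. The 19S regulator had the highest, 55.6% of 18 promoters. Over the 241 promoters the ETS letters were found in 33.6%, against 8.86% of all 32851 RefSeq promoters of the same length. The YY1 letters were found in 16.6% against 6.34%, the NRF1 letters in 11.6% against 3.58% and the Sp letters in 53.9% against 35.7%. CCAAT was about as frequent as in all promoters (37.3% against 37.4%), and TATAAA was found in 7.88% against 13.6%. The median GC content was 58.7% against 52.7%. A run of at least 6 C or T letters over the start base, as in messenger RNAs of the translation apparatus, was present at 28.3% of the 60 cytosolic ribosomal protein promoters and at 3.0% of the 67 mitochondrial ones, against 7.25% of all promoters. The 241 starts lay in regions with a peak in every library, while the 32851 promoters were not chosen by openness. The other promoter regions of these data were not searched. The differences can therefore not be assigned to these families rather than to open promoters in general. These matches describe letters in the window and were not tested against accessibility or against the RNA change.

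Nuclei passed the limits of the study on UMIs, genes and mitochondrial share and held at least 500 ATAC counts, and GCs were gated by markers (at least 2 UMIs from at least 2 of 12 GC genes, more than of any of 9 other classes). This gave 1423 to 2662 GC nuclei per WT mouse and 921 to 1286 per V321L mouse, 89.8% to 96.4% of them in the expression clusters led by GC markers. All 12 GC markers, *Prox1* among them, were detected in every mouse. The gate and the lead of a cluster rest on the same marker genes. Neither this share nor the detection of the markers is therefore independent support for the gate. The gated GCs of a mouse held between 2117624 and 7073836 ATAC counts in shared regions and between 2016646 and 6175118 RNA UMIs. Several measures moved with the genotype. Median UMIs per GC nucleus ran from 1123 to 2016 in WT mice, against 3217 to 4704 in V321L mice. The mitochondrial share of UMIs ran from 0.0697% to 0.137% in WT mice, against 0.304% to 1.08% in V321L mice. The summed markers did not overlap between the genotypes for GCs (6909 to 8032 CPM in WT, 5500 to 5978 in V321L), pyramidal and mossy neurons (532 to 669 and 340 to 383, 7 of 9 markers detected in every mouse, Calb2 and Drd2 at 0 in some), microglia (70.3 to 85.6 and 48.1 to 61.1, 5 of 5), oligodendrocyte precursors (12.9 to 21.0 and 3.29 to 10.9, 2 of 3, Pdgfra at 0 in some) and neuroblasts (35.9 to 53.7 and 56.1 to 73.8, 1 of 3, Igfbpl1 and Eomes at 0 in some), and overlapped for the other 5 lists. Single markers did not move with these sums throughout. The lower GC sum rested on Rfx3 (2990 to 4229 CPM in WT and 1549 to 1762 in V321L mice), and without it the sums overlapped (3803 to 4132 and 3938 to 4265). Of the 12 GC markers, 2 were lower in every V321L mouse than in any WT mouse (Rfx3 and Stxbp6) and 4 were higher, namely C1ql2 (12.9 to 37.2 and 304 to 330 CPM), Plk5 (5.24 to 16.4 and 74.7 to 95.7), Ablim3 (72.9 to 88.3 and 107 to 140) and Dsp. Among the microglia markers P2ry12 was lower (53.6 to 68.5 and 24.2 to 36.3) and C1qa higher (0.363 to 1.98 and 6.81 to 19.5), and without P2ry12 the sums overlapped. Among the pyramidal markers Cpne4, Hs3st4 and Drd2 were lower and Wfs1 higher, each without overlap. Drd2 was near the floor, at 0.275 to 0.496 CPM in the WT mice and 0 in each V321L mouse. The part of these differences in the results on the families was not tested. Median ATAC counts per GC nucleus overlapped (2008 to 5793 and 2538 to 13206). The V321L mouse M1 had the highest of these medians. Promoter regions held 66.9% of its counts in shared regions, against 64.1% to 64.4% in the other 3 V321L mice. The WT mice ran from 64.9% to 67.0% in this share, with WT M1 the highest. Of the barcodes taken as nuclei, 171 of 17015 occurred in 2 or more libraries, at most 13 in any pair.

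By the rule, every member region had a peak in each library, so that these promoters were open in all mice was a condition and not a result. Per kb of peak, a member region held a median of 64.6 CPM (counts scaled to a library of 1e6 counts in shared regions), the median over the other promoter regions was 51.6 and over the regions beyond 1 kb it was 25.2. Merged regions were 821 to 1420 bp wide (median 953), and 99.7% had exactly 1 peak in each library. Of the 303 regions, 107 (35.3%) lay within 1 kb of the TSS of at least 2 genes, against 19.2% of the other promoter regions. The counts of such a region cannot be divided between its genes. It also has more chances to match a family symbol, so the rule itself favours the higher share. How much of the difference the rule accounts for was not tested. Cytosolic ribosomal protein promoters had the highest family median (81.7 CPM per kb), the ATP synthase followed with 77.3, and the proteasome activators and chaperones had the lowest (49.5). Single regions ranged from 16.6 CPM per kb at *Mrpl3* to 199.99 at *Mrps18b*, both of the mitochondrial ribosome.

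The first question was whether accessibility of these promoters differed between the genotypes. None of the 303 regions passed edgeR's quasi-likelihood test at an adjusted p of 0.05, and DESeq2 also called 0. DESeq2 gave no adjusted p for some regions with few counts, among them those at *Mrpl3*, *Cox7b* and *Psmb8*, which it could therefore not call. Over all 25598 shared regions tested, 7 were called (0.0273%). At an unadjusted p under 0.05 there were 30 of the 303 (7 higher and 23 lower in V321L), or 9.90%, against 8.42% of the other promoter regions and 8.52% of all shared regions. Log2 fold changes ran from -0.44 to 0.37, with a median of -0.05, against -0.02 over the other promoter regions and 0.02 over the regions beyond 1 kb. The median SE was 0.11. The 95% confidence interval lay within a change of 2-fold (log2 of 1) in either direction for 303 of 303 regions, and within 0.5 on the log2 scale for 278. Changes at single regions that lie inside these intervals, below 2-fold, may not have been detectable at this depth. Even the largest estimates, -0.44 and 0.37, were not called.

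The families took 1.91, 1.90, 1.94 and 1.91% in the WT mice and 1.83, 1.87, 1.93 and 1.83% in the V321L mice (F1, F2, M1 and M2 in this order, as in every list of 4 values here) of the ATAC counts in shared regions. The V321L mouse M1 lay among the WT values, and the other 3 V321L mice lay below all 4 WT mice. Shared regions held 63.3% to 68.7% of the GC counts in all peaks in WT mice and 58.7% to 86.8% in V321L mice. Peaks per library ran from 61021 to 86955 in WT and from 36556 to 130470 in V321L mice. The share of the families in the counts of all peaks is not given here. The covered length of the regions was similar, 268 to 270 kb per WT and 270 to 275 kb per V321L library. Per covered kb the families held 71.3 ± 0.487 CPM in WT and 68.7 ± 2.13 CPM in V321L mice (SD, n = 4 each).

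**Figure D1:**
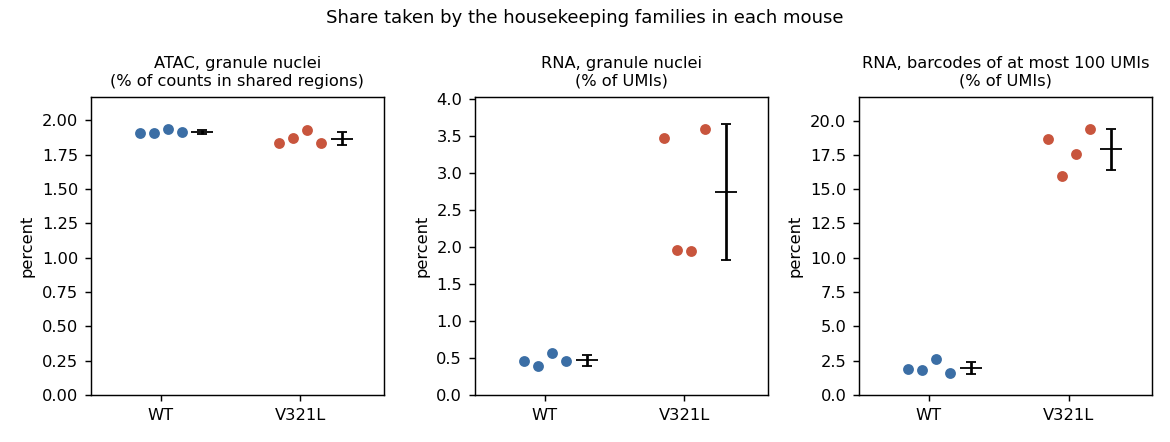
Share of the housekeeping families in each mouse, in percent, as points for the 4 WT and 4 V321L mice with the mean and SD beside them. The left panel gives ATAC counts of the 303 regions among the counts in shared regions of GC nuclei, the middle panel RNA UMIs of their genes in the same nuclei and the right panel RNA UMIs of these genes in barcodes of at most 100 UMIs. The ATAC share, of counts in shared regions only, stays between 1.83% and 1.94%. Both RNA shares, of all UMIs in those nuclei or barcodes, lie above all WT mice in the V321L mice.

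The promoters with the most and the fewest counts of each family are given with their values in every mouse. The region of *Rps19*, a protein of the small cytosolic subunit, held 184, 144, 161 and 152 CPM in the WT mice and 130, 160, 190 and 146 CPM in the V321L mice (log2 fold change -0.03 ± 0.12 (SE), adjusted p = 0.963). The genotypes overlapped, with the highest value in V321L M1 and the lowest in V321L F1. The lowest region of that family was 1 of 3 at *Rps14*, whose annotated TSS interval is wide, with 13.2, 17.4, 15.7 and 17.8 CPM in the WT mice and 22.6, 18.4, 10.7 and 24.6 CPM in the V321L mice (log2 fold change 0.16 ± 0.21 (SE), adjusted p = 0.870). The V321L mice spanned the whole WT range and more.

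In the mitochondrial ribosome, the *Mrps18b* region, which also lies at the start of Ppp1r10, held 190, 160, 198 and 177 CPM in the WT mice and 150, 159, 169 and 189 CPM in the V321L mice (log2 fold change -0.14 ± 0.11 (SE), adjusted p = 0.759). The *Mrpl3* region held 14.0, 11.9, 15.5 and 20.3 CPM in the WT mice and 16.7, 14.1, 9.47 and 15.1 CPM in the V321L mice (log2 fold change -0.23 ± 0.21 (SE), adjusted p = 0.808). Both pairs of groups overlapped, and *Mrpl3* had the widest SE of all 303 regions, 0.21.

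For complex I, which passes electrons from NADH to ubiquinone, the most accessible region was at *Ndufa11*, a membrane-arm subunit, with 120, 118, 126 and 131 CPM in the WT mice and 105, 112, 137 and 90.7 CPM in the V321L mice (log2 fold change -0.15 ± 0.11 (SE), adjusted p = 0.751). The least accessible was at *Ndufs4*, an accessory subunit, with 22.8, 21.0, 21.9 and 17.8 CPM in the WT mice and 23.0, 29.0, 21.5 and 31.6 CPM in the V321L mice (log2 fold change 0.30 ± 0.16 (SE), adjusted p = 0.619, 95% interval -0.03 to 0.62). Among the assembly factors the ends were *Ndufaf8*, with 114, 101, 116 and 115 CPM in the WT mice and 120, 105, 107 and 118 CPM in the V321L mice (log2 fold change -0.02 ± 0.10 (SE), adjusted p = 0.976), and *Ndufaf1*, with 17.7, 26.7, 18.4 and 17.0 CPM in the WT mice and 19.6, 28.5, 17.4 and 22.7 CPM in the V321L mice (log2 fold change 0.14 ± 0.18 (SE), adjusted p = 0.870). Values overlapped at each of these regions.

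Complex III had its highest region at *Uqcrq* with 150, 154, 165 and 148 CPM in the WT mice and 140, 144, 147 and 155 CPM in the V321L mice (log2 fold change -0.09 ± 0.10 (SE), adjusted p = 0.847) and its lowest at *Uqcrb*, the ubiquinone-binding protein, with 40.1, 32.0, 26.1 and 30.1 CPM in the WT mice and 24.4, 30.7, 31.0 and 33.1 CPM in the V321L mice (log2 fold change -0.11 ± 0.14 (SE), adjusted p = 0.875). *Cox4i1*, the common isoform of a regulatory subunit of complex IV, held 72.6, 74.0, 78.9 and 80.1 CPM in the WT mice and 89.6, 78.5, 90.5 and 75.1 CPM in the V321L mice (log2 fold change 0.12 ± 0.10 (SE), adjusted p = 0.784). The X-linked *Cox7b* held 18.1, 18.6, 24.1 and 21.8 CPM in the WT mice and 21.5, 23.4, 14.7 and 14.2 CPM in the V321L mice (log2 fold change -0.18 ± 0.18 (SE), adjusted p = 0.831). Genotypes overlapped at each of them, and both male V321L mice were the lowest at *Cox7b*.

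The ATP synthase, which makes ATP from the proton gradient, had its highest region at *Atp5g1*, a gene of the membrane ring, with 140, 124, 134 and 135 CPM in the WT mice and 111, 149, 144 and 123 CPM in the V321L mice (log2 fold change -0.02 ± 0.11 (SE), adjusted p = 0.979). Its lowest was at *Atp5j2*, with 29.3, 33.4, 29.3 and 35.4 CPM in the WT mice and 28.1, 33.4, 37.9 and 31.6 CPM in the V321L mice (log2 fold change 0.05 ± 0.13 (SE), adjusted p = 0.946). Neither region separated the genotypes.

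In the proteasome core, *Psmb3* held 96.6, 108, 105 and 102 CPM in the WT mice and 84.8, 108, 110 and 93.0 CPM in the V321L mice (log2 fold change -0.05 ± 0.10 (SE), adjusted p = 0.932). *Psmb8*, an interferon-inducible subunit of the immunoproteasome, held 16.9, 15.997, 22.5 and 13.0 CPM in the WT mice and 19.3, 19.6, 18.4 and 18.9 CPM in the V321L mice (log2 fold change 0.13 ± 0.18 (SE), adjusted p = 0.890). The 19S regulator, which recognizes and unfolds substrates, ranged from *Psmd5*, an assembly chaperone, with 74.2, 85.0, 78.2 and 82.5 CPM in the WT mice and 71.8, 78.8, 80.3 and 89.3 CPM in the V321L mice (log2 fold change -0.02 ± 0.10 (SE), adjusted p = 0.979), to *Psmd6* with 40.5, 33.4, 34.7 and 33.4 CPM in the WT mice and 42.2, 35.8, 34.6 and 31.2 CPM in the V321L mice (log2 fold change 0.00, 95% interval -0.25 to 0.26). *Psme2*, of the 11S activator, held 73.2, 93.1, 88.7 and 79.0 CPM in the WT mice and 79.3, 66.9, 103 and 78.4 CPM in the V321L mice (log2 fold change -0.03 ± 0.12 (SE), adjusted p = 0.967) and the assembly chaperone *Psmg3* held 24.4, 23.2, 19.04 and 20.9 CPM in the WT mice and 17.4, 27.5, 21.5 and 21.3 CPM in the V321L mice (log2 fold change 0.02 ± 0.16 (SE), adjusted p = 0.982). All 6 regions overlapped between the genotypes.

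The symbol rule also took in 10 genes of the Rps6k kinases, which phosphorylate ribosomal protein S6 and other targets and are not ribosomal proteins. Their highest region was at *Rps6ka5*, with 153, 133, 162 and 142 CPM in the WT mice and 119, 148, 163 and 145 CPM in the V321L mice (log2 fold change -0.05 ± 0.11 (SE), adjusted p = 0.945), and their lowest at *Rps6ka6*, with 18.3, 16.2, 25.9 and 22.7 CPM in the WT mice and 21.8, 22.4, 20.1 and 26.0 CPM in the V321L mice (log2 fold change 0.07 ± 0.17 (SE), adjusted p = 0.946). Neither separated the genotypes.

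**Figure D2:**
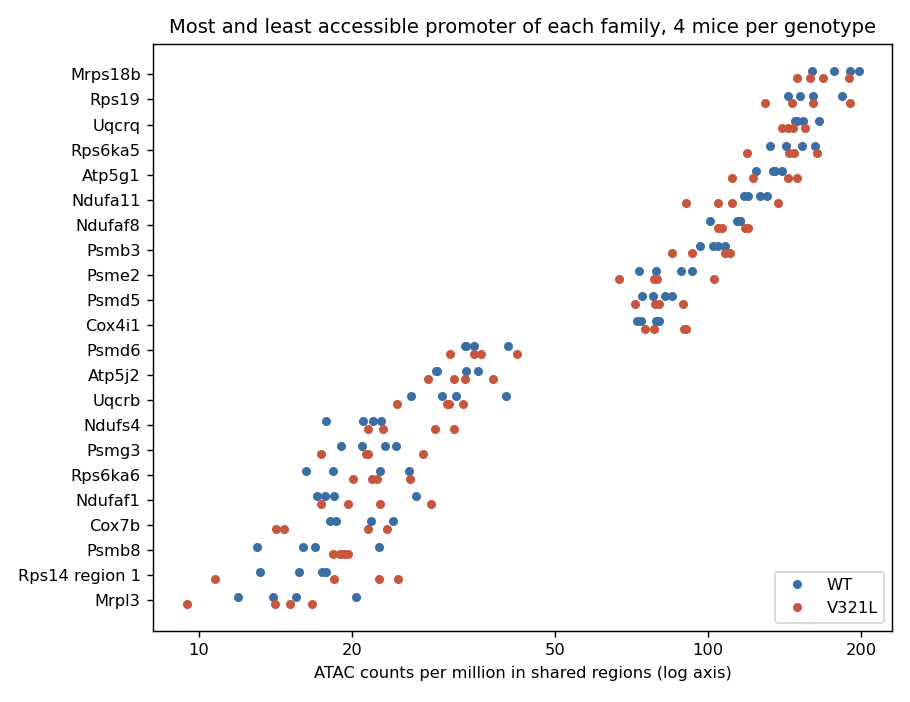
ATAC counts in CPM, on a log axis, for the most and the least accessible promoter of each of the 11 families, with 1 point for each of the 4 WT and 4 V321L mice. The points of the genotypes overlap at each of the 22 regions.

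Every V321L mouse lay below every WT mouse at 9 of the 303 regions and above at 4, or 2.97% and 1.32%, where all shared regions gave 2.21% below and 2.77% above. The region with the lowest p was chosen after its values were seen. It lay at *Ndufb11*, an X-linked complex I subunit, and at Rbm10, and held 51.0, 61.4, 49.8 and 50.6 CPM in the WT mice and 36.3, 42.1, 45.0 and 34.5 CPM in the V321L mice (log2 fold change -0.41 ± 0.12 (SE), adjusted p = 0.294). Its genotypes did not overlap, and it failed the adjusted threshold. *Rpl10*, an X-linked protein of the large cytosolic subunit, held 79.9, 90.3, 86.5 and 91.4 CPM in the WT mice and 63.3, 78.0, 72.7 and 66.1 CPM in the V321L mice (log2 fold change -0.31 ± 0.10 (SE), adjusted p = 0.354), also without overlap. *Uqcr10* was the rise with the lowest p, with 48.4, 45.4, 47.7 and 43.2 CPM in the WT mice and 49.99, 60.6, 61.5 and 55.3 CPM in the V321L mice (log2 fold change 0.30 ± 0.11 (SE), adjusted p = 0.433), again without overlap.

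By family, the median log2 fold change of accessibility was -0.10 for the cytosolic ribosome (83 regions, 67 below 0 and 16 above), -0.01 for the mitochondrial ribosome (80 regions, 42 and 38), -0.07 for complex I subunits (36), 0.00 for complex I assembly factors (8), -0.09 for complex III (8), -0.10 for complex IV (11), -0.04 for the ATP synthase (18), 0.05 for the proteasome core (17), -0.02 for the 19S regulator (21), -0.03 for proteasome activators and chaperones (9) and 0.01 for the Rps6k kinases (10). The share of regions with a positive log2 fold change was 34.98% over the members, 45.4% over the other promoter regions and 54.8% over the regions beyond 1 kb. The pooled SD between mice of the same genotype of the median deviation over all members was 0.0358 on the log2 scale. Of the 23 regions lower at an unadjusted p under 0.05 (edgeR), 12 were among the 83 of the cytosolic ribosome. Another 5 were among the 36 of complex I subunits and 4 among the 80 of the mitochondrial ribosome. The share of all shared regions lower at that p is not given here, and with all mice none of these passed the adjusted threshold. Without the V321L mouse M1, 1 of the member regions was called, at *Rps29*, a protein of the small cytosolic subunit (log2 fold change -0.46 ± 0.10 (SE), adjusted p = 0.0453), and over the members the median became -0.07. The share of all shared regions called in that fit is not given here. With all mice *Rps29* held 111, 115, 119 and 105 CPM in the WT mice and 77.0, 87.1, 108 and 86.9 CPM in the V321L mice (log2 fold change -0.33 ± 0.11 (SE), adjusted p = 0.375), and only V321L M1 lay inside the WT range.

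The RNA of the same genes in the same nuclei differed between the genotypes. Of the 293 genes that passed the filter on low counts, 263 were higher in V321L and 12 lower by edgeR's quasi-likelihood test at an adjusted p of 0.05, with a median log2 fold change of 2.58. Of all 12793 genes tested 38.2% were higher and 31.8% lower, with a median of 0.10. Among subunits only, 247 of 266 genes were higher and 4 lower. This leaves out the kinases, assembly factors, proteasome activators and chaperones and other symbol matches. The 4 genes below the filter were the immunoproteasome subunits *Psmb8* and *Psmb9*, at 0 UMIs in each WT mouse and at most 8 in a V321L mouse, and the kinases *Rps6ka1* and *Rps6ka4*, at up to 13 UMIs per mouse. For 270 of the 293 genes the lowest V321L value exceeded the highest WT value, and over all genes tested this held for 47.4%. These values, like the CPM listed per mouse, were scaled by library size and not by TMM. The log2 fold changes can therefore differ from the ratio of the listed CPM. The fit scales libraries by TMM. With library size in its place, the median of all genes became 0.53, members gave 275 higher and 8 lower, and of all genes tested 52.9% were higher and 17.8% lower. The share of higher genes among all calls was 54.6% with TMM and 74.8% with library size.

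As a share of the RNA UMIs of GC nuclei, the families made up 0.452, 0.390, 0.568 and 0.456% in the WT mice and 3.47, 1.96, 1.94 and 3.60% in the V321L mice. The same genes made up 1.89, 1.82, 2.58 and 1.59% in the WT mice and 18.6, 15.96, 17.6 and 19.4% in the V321L mice of the UMIs in barcodes of at most 100 UMIs, which hold RNA free in the suspension or in debris. Both shares were higher in every V321L mouse than in any WT mouse. Across the 293 genes, the change in the free RNA and the change in GC nuclei ranked alike (Spearman's rho 0.76, a description over genes of the same 8 libraries). The part of free RNA, of depth and of the mitochondrial share in the RNA result was not tested by a model. Thinned to 1000 UMIs per nucleus, 240 genes were higher and 12 lower of 275. In nuclei with at least 4 GC marker UMIs and none of another class, 128 were higher and 3 lower of 144. The share called over all genes in these fits is not given here, so the counts cannot be set against it.

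**Figure D3:**
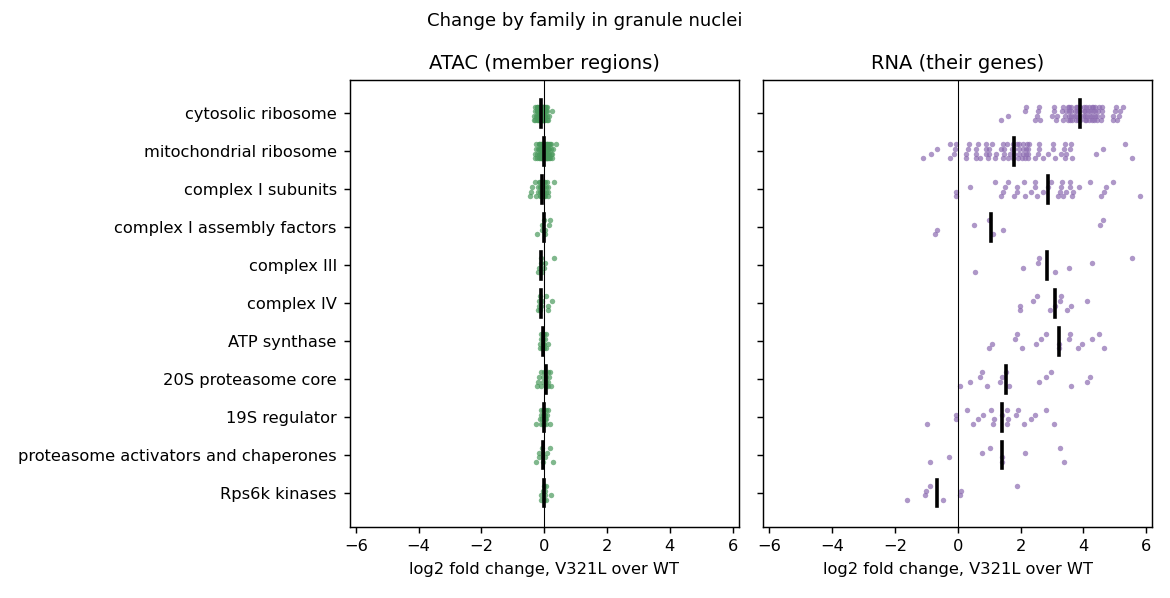
Log2 fold change of V321L over WT in GC nuclei by family, for the ATAC counts of each member region (left) and the RNA of each gene (right), 1 point per region or gene and a black bar at the family median, with both axes on the same scale. ATAC medians lie between -0.10 and 0.05 and RNA medians between -0.67 and 3.88.

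The cytosolic ribosome led the RNA. All 80 tested genes of it rose, by a median of 3.88 on the log2 scale and by at least 1.39. *Rps19* was at 2.20, 4.36, 9.42 and 3.33 CPM in the WT mice and 185, 84.0, 91.6 and 211 CPM in the V321L mice (log2 fold change 4.58 ± 0.39 (SE), adjusted p = 1.14e-06). Processed copies of ribosomal protein genes are spread over the genome, and reads shared with them are uncertain. The 80 genes took 0.0654, 0.0486, 0.122 and 0.0657% in the WT mice and 1.74, 0.857, 0.878 and 1.85% in the V321L mice of the RNA, with V321L F1 and M2 above F2 and M1. Their 83 regions took 0.630, 0.617, 0.633 and 0.634% in the WT mice and 0.574, 0.596, 0.618 and 0.582% in the V321L mice of the ATAC counts.

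The ATP synthase followed, with 17 of 17 genes higher and a median of 3.22, and then complex IV with 11 of 11 (3.09), complex I subunits with 35 of 37 higher (2.87) and complex III with 8 of 8 (2.85). *Cox4i1* was at 14.9, 9.07, 53.6 and 11.2 CPM in the WT mice and 567, 314, 315 and 601 CPM in the V321L mice (log2 fold change 4.11 ± 0.43 (SE), adjusted p = 3.82e-06). The WT mouse M1 was the highest of its group and still far below the V321L mice. *Atp5g1* was at 5.23, 4.54, 9.42 and 4.76 CPM in the WT mice and 208, 100, 80.5 and 199 CPM in the V321L mice (log2 fold change 4.27 ± 0.34 (SE), adjusted p = 8.33e-07), with no overlap. *Ndufs4* and *Ndufs1* were the 2 complex I subunits not called, at log2 fold changes of -0.06 and -0.05.

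The mitochondrial ribosome had 66 of 77 genes higher and 3 lower, with a median of 1.79. In the proteasome core 14 of 15 genes were higher (median 1.54), in the 19S regulator 16 of 21 higher and 1 lower (1.40), among activators and chaperones 7 of 9 higher and 1 lower (1.41), and among complex I assembly factors 6 of 8 higher and 2 lower (1.06). The Rps6k kinases had 1 gene higher and 5 lower of 8, and their median was -0.67.

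The 4 largest rises were of *Ndufa13*, *Uqcr11*, *Mrps34* and *Mrpl34*. *Ndufa13*, a complex I subunit, was at 1.38, 1.45, 5.45 and 2.62 CPM in the WT mice and 220, 131, 150 and 219 CPM in the V321L mice (log2 fold change 5.80 ± 0.29 (SE), adjusted p = 7.26e-08). Its 2 regions, which also lie at Tssk6 and Yjefn3, had log2 fold changes of -0.19 and 0.00 in accessibility. The first, in which the RefSeq start lies, held 55.9, 53.2, 56.4 and 57.2 CPM in the WT mice and 59.3, 48.3, 44.5 and 48.2 CPM in the V321L mice, with overlap between the genotypes. *Uqcr11* was at 0.275, 0.907, 4.96 and 0.714 CPM in the WT mice and 122, 44.5, 49.8 and 120 CPM in the V321L mice (log2 fold change 5.56 ± 0.55 (SE), adjusted p = 2.74e-06), and 10 of its 19 WT UMIs came from the WT mouse M1, without which the log2 fold change was 6.37. The region at *Uqcr11* held 49.4, 51.1, 43.6 and 47.1 CPM in the WT mice and 46.3, 42.1, 41.1 and 35.9 CPM in the V321L mice (log2 fold change -0.21 ± 0.11 (SE), adjusted p = 0.614). *Mrps34* was at 0, 0.363, 1.98 and 0.238 CPM in the WT mice and 42.2, 19.9, 22.3 and 42.8 CPM in the V321L mice (log2 fold change 5.56 ± 0.53 (SE), adjusted p = 2.07e-06). This rests on 7 UMIs in WT mice, 4 of them from WT M1, and without WT M1 the log2 fold change was 6.45. The region of *Mrps34*, at the starts of Eme2 and Nme3 too, held 41.5, 50.4, 38.8 and 42.9 CPM in the WT mice and 47.8, 42.1, 35.2 and 43.4 CPM in the V321L mice (log2 fold change -0.07 ± 0.12 (SE), adjusted p = 0.904). *Mrpl34* had 3 UMIs in the 4 WT mice, 2 of them in WT M1, and 214 in the V321L mice, a ratio of their shares of 60.7 with an exact 95% interval from 20.5 to 296 that covers counting error only. Its region held 78.5, 80.0, 79.1 and 88.5 CPM in the WT mice and 83.7, 93.6, 88.4 and 85.5 CPM in the V321L mice (log2 fold change 0.10 ± 0.10 (SE), adjusted p = 0.822). At these 4 genes, which were chosen by their RNA change, the RNA of the genotypes did not overlap. The accessibility of each promoter overlapped, as at most shared regions (2.21% had every V321L mouse below every WT mouse and 2.77% above).

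The 4 largest falls were of *Rps6ka6*, *Mrpl1*, *Rps6ka5* and *Rps6ka3*. *Mrpl1*, of the large mitochondrial subunit, was at 61.7, 67.1, 64.5 and 69.3 CPM in the WT mice and 38.7, 44.4, 43.4 and 39.6 CPM in the V321L mice (log2 fold change -1.10 ± 0.12 (SE), adjusted p = 4.64e-06), and its region held 40.9, 36.8, 39.2 and 36.1 CPM in the WT mice and 36.7, 38.5, 36.8 and 37.8 CPM in the V321L mice (log2 fold change -0.05 ± 0.12 (SE), adjusted p = 0.946). *Rps6ka6* was at 13.2, 12.2, 12.9 and 12.9 CPM in the WT mice and 5.66, 3.401, 8.22 and 5.61 CPM in the V321L mice (log2 fold change -1.62 ± 0.25 (SE), adjusted p = 7.28e-05). *Rps6ka5* was at 70.7, 89.3, 78.8 and 78.1 CPM in the WT mice and 50.9, 44.5, 66.0 and 49.9 CPM in the V321L mice (log2 fold change -1.03 ± 0.15 (SE), adjusted p = 6.67e-05). *Rps6ka3*, the X-linked kinase RSK2, was at 177, 181, 165 and 166 CPM in the WT mice and 114, 129, 117 and 99.5 CPM in the V321L mice (log2 fold change -1.02 ± 0.12 (SE), adjusted p = 1.04e-05), and its region held 26.2, 26.7, 27.1 and 24.9 CPM in the WT mice and 26.3, 23.2, 28.1 and 28.3 CPM in the V321L mice (log2 fold change -0.01 ± 0.14 (SE), adjusted p = 0.993). The V321L mice lay below the WT mice in the RNA of each of the 4 genes, which were chosen by their RNA change. The share of all genes with this separation is not given here. The promoters of the 4 genes overlapped, as most shared regions did. With library size in place of TMM the 4 fell by 1.18 (*Rps6ka6*), 0.66 (*Mrpl1*), 0.59 (*Rps6ka5*) and 0.58 (*Rps6ka3*) and were still called. Of all 12 genes that fell, 8 were called lower in that fit and 12 were below 0. In the strictly gated nuclei, the falls of *Rps6ka5* (-0.65, adjusted p = 0.136) and *Rps6ka3* (-0.29, adjusted p = 0.284) were not called.

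To set the assays against each other, the change in RNA minus the change in accessibility was tested in each mouse's paired values by limma, over 10389 genes with a shared promoter region. It was above 0 for 259 and below 0 for 12 of the 293 member genes at an adjusted p of 0.05, with a median of 2.57, and over all genes tested 38.8% were above and 25.0% below. The difference was 5.63 ± 0.29 (SE) for *Ndufa13*, 4.47 ± 0.40 (SE) for *Rps19* and 4.09 ± 0.36 (SE) for *Cox4i1*, and -1.04 ± 0.16 (SE) for *Mrpl1* on the log2 scale. With strictly gated nuclei 119 of 138 were above and 0 below, and the share over all genes in that fit is not given here. Across the 293 genes the 2 changes had a Spearman's rho of -0.23, a description over genes measured in the same nuclei.

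**Figure D4:**
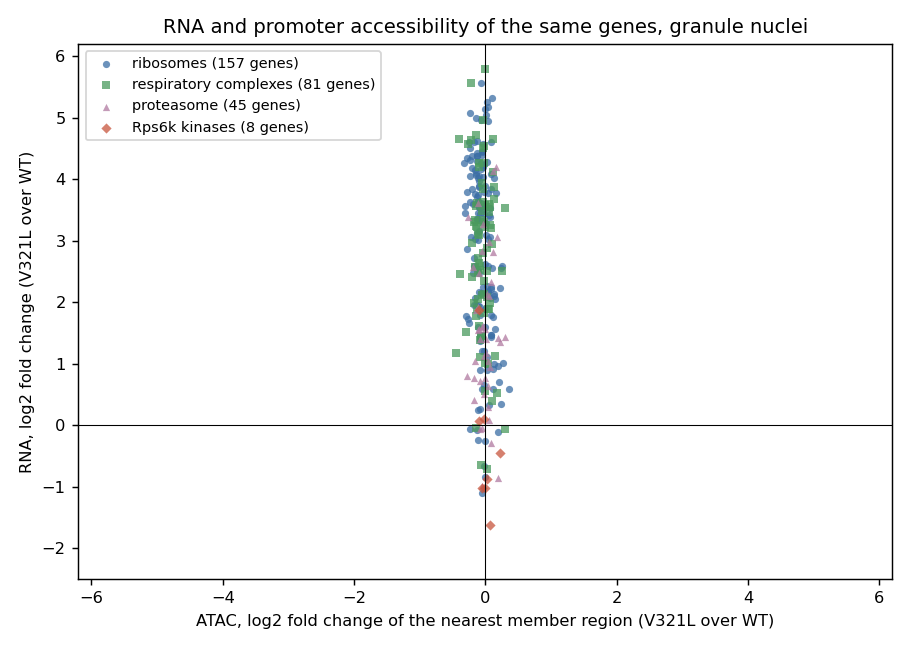
Log2 fold change of RNA (vertical axis) against log2 fold change of ATAC counts at the region nearest to the TSS (horizontal axis, same unit and wider range than the data), V321L over WT in GC nuclei, for 291 of the 293 genes, marked by class. The points form a vertical band, with ATAC changes from -0.44 to 0.37 and RNA changes from -1.62 to 5.80.

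Accessibility was also compared between GC nuclei and the nuclei led by another class's markers in the same mice, with the mouse as a block. Of the 303 regions, 126 were less accessible in GC nuclei and 1 more, by edgeR at an adjusted p of 0.05, with a median log2 fold change of -0.26. All 25596 regions tested gave 25.2% lower and 27.8% higher. The other promoter regions had a median of -0.24, 38.6% lower and 10.3% higher, and regions beyond 1 kb had a median of 0.47. The median size of the difference was 0.27 for members, 0.32 for other promoters and 0.68 beyond 1 kb, and these shares and medians were not tested against each other. This fit pools both genotypes, and the member median was -0.09 within WT mice and -0.45 within V321L mice.

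**Figure D5:**
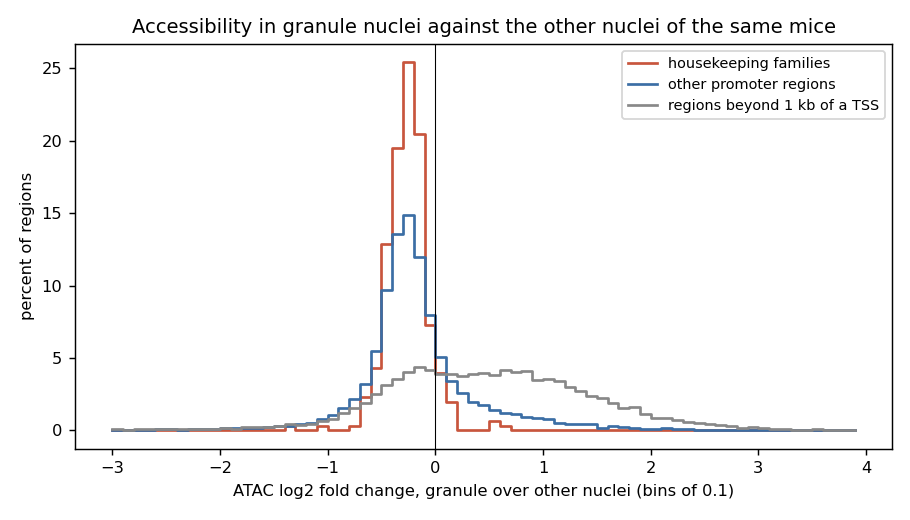
Percent of regions in bins of 0.1 of the ATAC log2 fold change of GC nuclei over other nuclei of the same 8 mice, for the housekeeping promoters, the other promoter regions and the regions beyond 1 kb of a TSS. The housekeeping promoters lie around a median of -0.26, close to the other promoters at -0.24, and the regions beyond 1 kb around 0.47. Both genotypes are pooled, and the median of the housekeeping promoters was -0.09 within WT mice and -0.45 within V321L mice.

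In this fit over both genotypes, the largest difference was at *Psmb10*, the third immunoproteasome subunit, with a level of 49.96 CPM in the other nuclei (log2 fold change -1.34 ± 0.15 (SE), adjusted p = 4.42e-06). A second region at *Rps14* (log2 fold change -1.02 ± 0.17 (SE), adjusted p = 0.000134), *Mrpl34* (log2 fold change -0.70 ± 0.12 (SE), adjusted p = 0.000125) and *Psma6* (log2 fold change -0.70 ± 0.13 (SE), adjusted p = 0.000350) followed. The smallest were at *Mrps5*, *Rps25*, *Rpl36* and *Atp5l*, with log2 fold changes of 0.00, 0.01, -0.01 and 0.01. The region called more accessible in GC nuclei was named after its values were seen. It lay at *Ndufa1*, an X-linked complex I subunit (log2 fold change 0.68 ± 0.20 (SE), adjusted p = 0.0115). These values mix cell classes and pool the genotypes, whose member medians lay apart. Within WT mice 29 members were lower and 2 higher (median -0.09, with 15.5% of all regions lower and 19.7% higher). Within V321L mice 202 were lower and 1 higher (median -0.45, with 29.2% of all regions lower and 30.4% higher). The genotypes were not tested against each other in this difference. Of the counts in shared regions, promoter regions held 69.2% to 70.7% in the other nuclei of WT mice and 72.7% to 80.2% in those of V321L mice. Leaving out 1 V321L mouse at a time gave 90 (F1), 84 (F2), 81 (M1) and 95 (M2) members lower and 1 higher. Leaving out 1 WT mouse at a time gave 118 to 135 lower and 1 to 2 higher. The share over all regions in these fits is not given here.

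In those other nuclei, V321L against WT gave 55 of the 303 regions higher and 0 lower (10.4% of all regions higher and 10.8% lower), with a median of 0.28 against 0.25 for the other promoter regions. The RNA of the member genes gave 237 of 287 higher and 12 lower there (29.6% of all genes higher and 27.3% lower), with a median of 2.55. The classes among those nuclei were not separated. In GC nuclei, fits within females gave member medians of -0.06 for ATAC and 2.73 for RNA, and fits within males -0.04 and 2.43. A test of whether the genotype effect differed between the sexes (edgeR) called 0 regions and 0 genes of all tested. At an unadjusted p under 0.05 there were 7 member regions and 2 member genes. The share over all regions and genes at that p is not given here, so these counts show no sex difference of the members.

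Of the 318 genes, 21 had no member region. At 15 of them no library had a peak within 1 kb, among them the testis or muscle forms *Rpl10l*, *Rpl39l*, *Rpl3l*, *Cox6a2*, *Cox8b*, *Cox7b2* and *Psma8*, the lung form *Cox4i2* and 5 pseudogene names such as *Rpl9-ps1*. At 6 genes some libraries had one, 7 of 8 at *Mrpl53*, 6 at *Cox6b2*, 5 at *Cox8c*, 2 each at *Rps27rt* and *Psmb11* and 1 at *Cox7a1*.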

How the data were processed

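RNA and ATAC counts came from 8 Multiome libraries, 1 per mouse. The authors' Cell Ranger ARC 2.0.2 matrices, as the deposited headers name it, hold raw RNA UMI counts per gene and ATAC counts in peaks called per library, for all barcodes. The submitters' processing notes also name Seurat, Signac and the build mm10. Positions were deposited beside the counts and used as given there. Nuclei passed the study's limits (more than 500 UMIs and 250 genes, with its upper bounds on both and on the mitochondrial share) and held at least 500 ATAC counts. Peaks were merged over libraries, and counts in merged regions with a peak in every library and RNA UMIs were summed over gated granule nuclei per mouse, so that mice and not nuclei were the replicates. No doublets were removed in the main gate, and removing those with a Scrublet-type score above the library mean + 2 SD (3.71% to 5.89%) was an alternative.

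Sums were tested in R 4.3.3 with edgeR 4.0.16 (quasi-likelihood, TMM, filter on low counts), with DESeq2 1.42.0 as second tool. RNA minus ATAC was tested with limma 3.58.1 on log2 CPM with a prior count of 2. P-values were adjusted by Benjamini-Hochberg over all regions or genes tested, at 0.05. Fold changes are log2 of V321L over WT with SE, and 95% intervals use the fit's degrees of freedom. The scripts were tested on simulated data. Clusters used leidenalg 0.10.2 in Python 3.11.15. The members and gene lists were chosen with earlier results of these data known. Named were the regions with the highest and lowest mean share of counts in each of 11 families, the 4 largest called RNA rises and falls, the 4 regions with the smallest and the 4 with the largest difference between granule and other nuclei, and any called ATAC region or pair called in opposite directions, of which there were none. Alternatives changed scaling, tool, filter, gate, doublets, thinning, covered length, TSS distance, the families, sex as covariate, the replicate block and the mice included.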

Additional observations from a re-analysis of the deposited data

Results flagged for a closer look

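Among 86 groups of 4 values, 7 had 1 mouse far from the other 3, where chance gives about 1 in 20. In WT mice, the accessibility of *Ndufaf8* was 101 CPM in 1 mouse and 114 to 116 in the others, that of *Ndufaf1* 26.7 against 17.0 to 18.4, that of *Rps25* 92.5 against 109 to 112 and that of *Mrpl34* 88.5 against 78.5 to 80.0. The RNA of *Uqcr11* was 4.96 CPM in 1 WT mouse against 0.275 to 0.907. In V321L mice, promoter regions held 66.9% of the ATAC counts in shared regions in 1 mouse against 64.1% to 64.4%. The WT mice ran from 64.9% to 67.0% in this share. The accessibility of *Rps25* was 85.9 CPM in 1 V321L mouse against 103 to 105.

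In barcodes of at most 100 UMIs, which lie outside the nuclei tested, all 318 genes that matched, also those with no region, made up 17.9% of the UMIs in V321L libraries on average, against 1.59% to 2.59% in WT libraries. Its part in the RNA of GC nuclei was not tested.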

How the results depend on the processing

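Of 111 values of the 6 main results under alternatives, 104 stayed within 1.5 times the count or within the SD between mice of the median. The strict marker gate, which left 38 to 75 V321L nuclei per mouse, moved the ATAC median of the members to -0.10, the RNA calls to 131 of 144 genes tested, the RNA median to 3.75 and the calls of RNA minus ATAC to 119. Library size in place of TMM moved the RNA median to 3.01. Fewer genes passed the filter under the strict gate, and the cause of the other moves was not tested. Apart from library size in the RNA, the share called over all regions or genes is not given for these alternatives. Leaving out each mouse in turn gave 0 to 1 ATAC calls, ATAC medians of -0.07 to -0.04, 269 to 277 RNA calls, RNA medians of 2.42 to 2.72, 265 to 270 calls of RNA minus ATAC and 82 to 136 calls between granule and other nuclei. The extremes 1, -0.07 and 82 came without the V321L mouse M1. Between granule and other nuclei, leaving out another V321L mouse gave 85 to 96 calls, and leaving out a WT mouse gave 119 to 136. Mice share replicate numbers between genotypes. Between mice of the same number, correlations of deviations ran from -0.08 to 0.22 in ATAC and from -0.11 to 0.26 in RNA. Mice of unlike numbers were not compared, so whether the numbers pair the mice was not settled. With the replicate block, 0 regions and 275 genes were called, the same 275 genes as without it, with medians of -0.05 and 2.57 and 270 calls of RNA minus ATAC. Of 701 values of single named regions and genes, 562 were ATAC values of regions not called in the main fit, which had no call to lose. Their estimates could still change sign, as at *Psmd5* from -0.02 to 0.37 under the strict gate. Of the 139 RNA values, 2 lost their call (*Rps6ka5* and *Rps6ka3* under the strict gate) and none changed direction after being called. A gate of at least 6 granule UMIs with at most 20% of other markers, and genes with a TSS interval of at most 1 kb, were added after seeing the data and moved none of these results. Depth per region limits what single promoters can show, with a median SE of 0.11 on the log2 scale.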
